A study of Mus musculus with 24 samples.

Results

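The genes of dopamine synthesis, storage and reception were followed through neural retinas and eye cups of mice with inducible PRDM13. The 6 genes were Th, Ddc, Slc18a2, Drd1, Drd2 and Drd4, taken by gene name from the 56748 rows of the deposited table, and each name matched 1 row. Poly(A) RNA was sequenced from the retina and the eye cup, which holds the retinal pigment epithelium (RPE), choroid and sclera, of 12 C57BL/6J mice. PRDM13-OE mice were heterozygous for a Rosa26 knock-in with 1 copy of an HA-tagged human PRDM13 behind a TRE3G promoter, with rtTA driven in all tissues by EF-1α, and wildtype mice were their littermates. Doxycycline (dox) was given from postnatal day 28 for 72 hours at 2 mg/mL in drinking water with 10% sucrose, and untreated mice of both genotypes served as controls. The 4 groups of each tissue were PRDM13-OE with dox, wildtype with dox, untreated PRDM13-OE and untreated wildtype, with 3 mice each, and a retina and an eye cup carrying the same mouse number came from 1 animal. Mice of both sexes were used, and human PRDM13 transcripts were not analysed here.

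In the retina, dopamine is released by a sparse class of amacrine cells in the inner nuclear layer and carries the signal of daylight to all retinal layers. Tyrosine hydroxylase (Th) makes L-DOPA in the rate-limiting step, aromatic L-amino acid decarboxylase (Ddc) converts it to dopamine, and the vesicular monoamine transporter (Slc18a2) loads dopamine into vesicles. Of the receptors, Drd1 couples to stimulatory G proteins and is found on bipolar, horizontal, amacrine and ganglion cells. Drd2 couples to inhibitory G proteins and includes the autoreceptor of the dopaminergic cells, whereas Drd4 couples to inhibitory G proteins in photoreceptors, where it lowers cAMP and follows a daily rhythm. The time of day of collection was not given in the sources used here.

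Sequences just upstream of RefSeq transcript starts are shown for the member with the largest change and for the 3 genes of synthesis and storage. RefSeq promoters of all 6 genes (annotation of GRCm38.p6) were matched letter for letter to GRCm39, and the 250 bases before each start were searched on both strands for 6 motifs. The Drd4 sequence is given for chr7:140871681-140871901 on the plus strand and held no match to any of the 6 motifs.
Drd4: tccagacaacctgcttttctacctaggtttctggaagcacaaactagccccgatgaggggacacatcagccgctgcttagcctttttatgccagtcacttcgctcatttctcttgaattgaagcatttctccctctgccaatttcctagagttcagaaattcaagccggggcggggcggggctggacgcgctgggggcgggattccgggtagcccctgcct
RefSeq gave 2 starts each for Ddc and Drd1 and 1 for the others. The 3 genes of synthesis and storage each had 1 match, that of Ddc at the outer of its starts, set in capitals in 30 bases on the strand of the gene. They are a cAMP response element of Th, 45 bases before the start at chr7:142453759-142453788, an NR4A element of Ddc read on the other strand, 73 bases before the start at chr11:11848199-11848228, and an E-box of Slc18a2, 87 bases before the start at chr19:59249211-59249240.
Th: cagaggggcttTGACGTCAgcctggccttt
Ddc: gctacacgcctTGACCTTTataccagcaga
Slc18a2: tgaccgcagcccCAGCTGcggcccagaggc
The cAMP response element TGACGTCA was in 1.55% of 32851 promoter windows of that length, the NR4A element AAAGGTCA in 1.34% and the E-box CAGCTG in 13%. The other motifs were the photoreceptor homeodomain site TAATCC, in 6.25% of windows, the E-box CACGTG, in 6.02%, and the AP-1 site TGACTCA, in 4.46%, and none of these 3 was in a window of the 6 genes. The RefSeq start of Th lies inside the interval chr7:142446489-142484865 that the deposited table gives for the gene, so its window is not upstream of the whole counted gene. The window of the inner start of Ddc and the windows of Drd1 and Drd2 held none of the 6 motifs. A match is a run of letters and was not tested as a binding site.

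The libraries held 15825059 to 24908314 counts each, and counting error was small for the receptors and large for Ddc. Drd4 had 4260 to 9092 counts per retina, Drd1 720 to 1219 and Drd2 771 to 1137, whereas Slc18a2 had 93 to 156, Th 58 to 126 and Ddc 11 to 31. The retinas carried their markers, with summed rod genes at 51543 CPM (counts per 1000000 of the library) or more and the summed RPE list at 317 CPM or less. The eye cups held 5784 to 48252 CPM of the RPE list and also 2960 to 46893 CPM of the rod list, a range of rod transcripts that none of the retinas showed. Wildtype retinas 1 and 2 with dox stood apart with 12242 and 5381 CPM of lens crystallins, against 30.5 to 889 CPM in the other 10, and results that rest on them are given with and without both. The mouse gene Prdm13 was at 52.8 to 60.3 CPM in PRDM13-OE retinas with dox and 46.7 to 50.9 CPM in wildtype retinas with dox, a difference of 0.22 on the log2 scale (edgeR adjusted p = 0.0482), and at 0.28 (adjusted p = 0.245) without both lens-rich retinas. Whether reads of the human transgene were counted to it was not tested.

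Drd4 was the most abundant of the 6 transcripts in every retina and Ddc the least abundant. On the deposited FPKM scale, which is per length, median levels over the 12 retinas were 77.3 for Drd4, 17.8 for Drd2, 13.6 for Drd1, 1.88 for Th, 1.34 for Slc18a2 and 0.231 for Ddc. The Drd4 level ranged from 56.6 to 133 FPKM and did not overlap that of Drd2, at 14.7 to 19.9 FPKM. Drd2 was above Drd1 in 12 of 12 retinas although their ranges touched, since Drd1 reached 14.8 FPKM. Th and Slc18a2 were neighbours that did not separate, with Th higher in 11 of 12 retinas and ranges of 1.19 to 2.39 and 0.946 to 1.60 FPKM. Ddc stayed between 0.121 and 0.346 FPKM, below every other member in each retina.

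**Figure D1:**
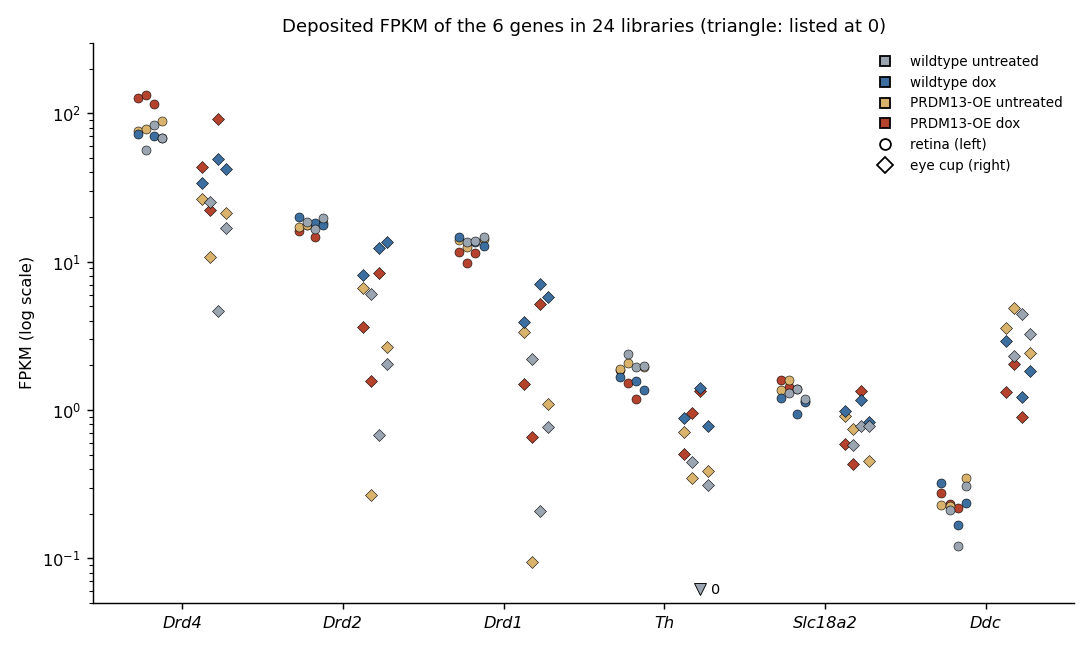
Deposited FPKM (log axis) of the 6 genes, with 1 point per library, circles for the 12 retinas and diamonds for the 12 eye cups, coloured by group. In retinas the order runs from Drd4 at a median of 77.3 to Ddc at 0.231, whereas Ddc is the 1 gene that lies higher in the eye cups, and the triangle marks the eye cup in which Th is listed at 0.

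To determine how elevated PRDM13 affected these genes, retinas of PRDM13-OE and wildtype mice that both received dox were compared first. Of the 6 genes, Drd4 rose and Drd1 fell slightly, while Th, Ddc, Slc18a2 and Drd2 did not pass the test. An adjusted p below 0.05 was met by 12.5% of the 20560 genes tested, and by 2.41% together with the study's cutoff of 1 on the log2 scale. Of the 6 members, 2 met the former and 0 met the latter, by edgeR and by DESeq2. The median log2-fold change over the 6 was 0.03, beside 0.01 over all genes tested.

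Drd4 was at 474, 500 and 431 CPM in the PRDM13-OE retinas with dox. Wildtype retinas with dox held 260, 251 and 260 CPM, untreated PRDM13-OE retinas 320, 281 and 291 CPM, and untreated wildtype retinas 208, 312 and 249 CPM. All 3 PRDM13-OE retinas with dox were therefore above the other 9, which reached no further than 320 CPM. Between the 2 groups with dox, 31.8% of the 20560 genes tested did not overlap. The Drd4 means were 468 ± 34.7 (SD, n = 3) CPM and 257 ± 5.25 (SD, n = 3) CPM with dox, a 1.82-fold difference. The log2-fold change was 0.86 (SE 0.06, 95% confidence interval 0.74 to 0.99, edgeR adjusted p = 2.3e-06), which put Drd4 at rank 52 by p of the 20560 genes, and it passed under all 15 alternatives, between 0.75 and 0.95.

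Drd4 rose while most of the photoreceptor genes measured beside it fell. The rod list was at 51543 to 57896 CPM in PRDM13-OE retinas with dox and at 69205 to 75926 CPM in the other 9. Of its 8 genes, 6 passed as lower with dox in PRDM13-OE, at −0.37 to −0.50 on the log2 scale, and Pde6a and Pde6b, the rod phosphodiesterase subunits, were at −0.04 and −0.03 without passing. Of 7 cone genes, 6 fell and 1 rose, Pde6c, with a median of −1.41. Without both lens-rich retinas 6 of 8 rod genes passed as lower, as did 6 cone genes, with 1 higher. Drd4 per 1000 reads of the rod list was 9.21, 9.47 and 7.44 in PRDM13-OE retinas with dox and 3.59, 3.48 and 3.74 in wildtype retinas with dox, a ratio of 2.40, to which the lower rod sum contributes. Bulk RNA cannot tell fewer cells of a type from less RNA per cell.

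**Figure D2:**
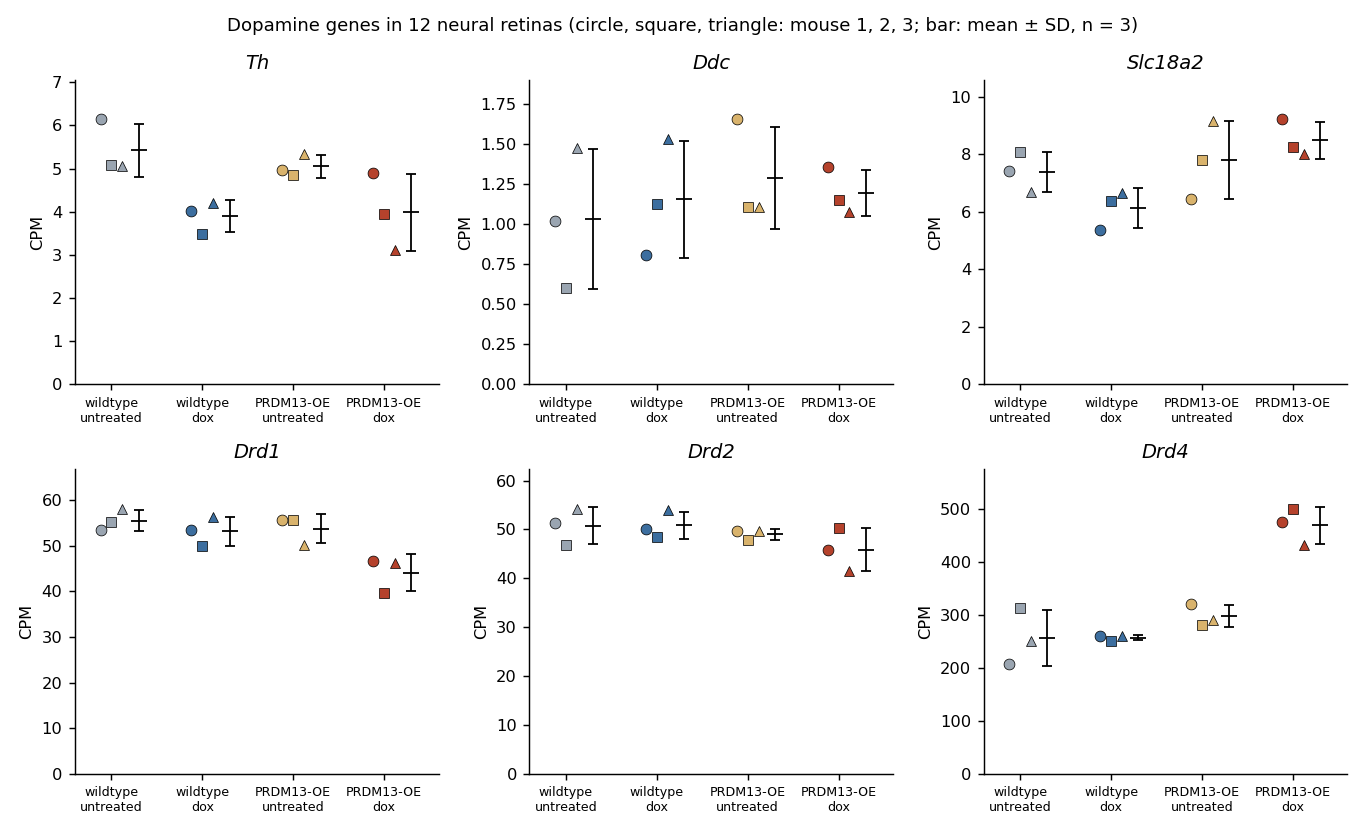
CPM of the 6 genes in the 12 retinas by group, with circle, square and triangle for mouse 1, 2 and 3 and a bar for the mean ± SD (n = 3), every axis from 0. The 3 PRDM13-OE retinas with dox are above all others for Drd4 (431 to 500 CPM) and below all others for Drd1 (39.6 to 46.6 CPM). Of all genes tested, 31.8% did not overlap between the 2 groups with dox.

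Drd1 was the other member that passed, in the opposite direction and with a small change. It was at 46.6, 39.6 and 46.3 CPM in PRDM13-OE retinas with dox and at 53.5, 49.9 and 56.3 CPM in wildtype retinas with dox. Untreated PRDM13-OE retinas held 55.6, 55.6 and 50.1 CPM and untreated wildtype retinas 53.4, 55.1 and 58.1 CPM. The 3 PRDM13-OE retinas with dox were thus the lowest of the 12, and 31.8% of the 20560 genes tested did not overlap between the 2 groups with dox. The Drd1 group means of 44.1 and 53.2 CPM with dox gave a log2-fold change of −0.28 (SE 0.08, 95% confidence interval −0.44 to −0.11, edgeR adjusted p = 0.0372). This call was less firm than that of Drd4, because the adjusted p became 0.127 without PRDM13-OE retina 2, 0.0575 without PRDM13-OE retina 3, 0.0839 without wildtype retina 1, 0.106 without wildtype retina 3, 0.124 with library size in place of TMM factors and 0.0918 with the lens crystallin level as a covariate. With both lens-rich retinas left out, in a fit over the other 10 retinas that took the lone wildtype retina with dox to vary like the other groups, Drd1 was at −0.36 (adjusted p = 0.0861) and Drd4 at 0.84 (adjusted p = 0.0068). Lists of cells that hold Drd1 were also low in PRDM13-OE retinas with dox, horizontal at 108 to 115 CPM against 119 to 152 CPM in the other 9 and bipolar at 1314 to 1445 against 1436 to 1656 CPM, while amacrine was at 1413 to 1434 against 1412 to 1620 CPM and ganglion at 966 to 1009 against 1006 to 1169 CPM. Of 4 horizontal genes 2 fell, with a median of −0.43, and of 8 bipolar genes 2 fell and 2 rose, with a median of −0.24. Without both lens-rich retinas the medians were −0.52 for the horizontal and −0.37 for the bipolar genes. Their part in the Drd1 values was not tested.

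Drd2 did not pass, and its groups overlapped. PRDM13-OE retinas with dox were at 45.7, 50.3 and 41.4 CPM and wildtype retinas with dox at 50.1, 48.4 and 53.9 CPM. The untreated retinas of both genotypes lay between 46.8 and 54.2 CPM, so the lowest 2 of all 12 were PRDM13-OE retinas with dox. The log2-fold change was −0.16 (SE 0.08, 95% confidence interval −0.33 to 0.02, edgeR adjusted p = 0.234), an interval that leaves out a change of the size of Drd4, and was −0.25 (adjusted p = 0.298) without both lens-rich retinas.

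Among the genes of synthesis and storage, Slc18a2 came closest to the threshold. It was at 9.21, 8.24 and 8.01 CPM in PRDM13-OE retinas with dox and at 5.35, 6.38 and 6.67 CPM in wildtype retinas with dox, 2 groups that did not overlap, as for 31.8% of the 20560 genes. The log2-fold change was 0.46 (SE 0.14, 95% confidence interval 0.15 to 0.77), and the edgeR adjusted p of 0.0535 fell to 0.0226 to 0.0455 in 5 of 15 alternatives, among them no filter on low counts, robust fitting and leaving out wildtype retina 3. Without both lens-rich retinas the value was 0.33 (adjusted p = 0.508) and with the lens crystallin level as a covariate 0.28 (adjusted p = 0.709). Untreated retinas, at 6.44 to 9.15 CPM in the PRDM13-OE group and 6.68 to 8.09 CPM in wildtype, overlapped the PRDM13-OE retinas with dox. Wildtype retinas with dox were all below the untreated wildtype retinas, at −0.26 on the log2 scale (edgeR adjusted p = 0.642), and 14.4% of all genes did not overlap there. PRDM13-OE retinas with dox were at 0.12 against untreated PRDM13-OE retinas (edgeR adjusted p = 0.814). Slc18a2 is also made by mast cells and platelets, and the mast cell list was at 13.5 to 17.9 CPM in the PRDM13-OE group and 18.9 to 24.6 CPM in wildtype retinas with dox, while the platelet list was at 2.42 to 3.08 and 1.13 to 2.19 CPM. Sympathetic and adrenergic cells make it too, and their list of 4 genes was at 1.77 to 2.53 CPM in PRDM13-OE retinas with dox and 0.799 to 1.64 CPM in the other 9. These sums rest on few genes at low levels. In retinas with dox 2 of 8 mast cell genes and 2 of 4 platelet genes could be tested, and the platelet genes went opposite ways (Pf4 −1.105, Itga2b 1.27). Of the 4 sympathetic and adrenergic genes, 1 had 0 counts in the retinas. The part of these cell types in the Slc18a2 values was not tested. Slc18a2 shares 475 exonic bases with Pdzd8 on the other strand, and Ddc 421, Drd2 240 and Th 103 with long noncoding RNAs on the other strand, and the sources used here do not say whether strand was used in counting.

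Th, which sets the rate of dopamine synthesis, did not pass with dox between PRDM13-OE and wildtype retinas. PRDM13-OE retinas held 4.90, 3.96 and 3.12 CPM and wildtype retinas 4.03, 3.49 and 4.19 CPM, so the PRDM13-OE values enclosed the wildtype ones. The log2-fold change was 0.02 (SE 0.20, 95% confidence interval −0.42 to 0.47, edgeR adjusted p = 0.958). In untreated retinas Th was at 4.96, 4.84 and 5.34 CPM in the PRDM13-OE group and at 6.14, 5.08 and 5.05 CPM in wildtype, so that the wildtype retinas with dox were all below the untreated wildtype retinas, and 14.4% of all genes did not overlap between these groups. That difference was −0.47 (SE 0.17) on the log2 scale and did not pass after adjustment (unadjusted p = 0.0175, edgeR adjusted p = 0.424), and was −0.36 (adjusted p = 0.969) without both lens-rich retinas.

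Ddc was near the limit of detection in the retina. PRDM13-OE retinas with dox held 23, 21 and 20 counts and wildtype retinas with dox 14, 21 and 26, which is 1.07 to 1.36 and 0.806 to 1.53 CPM. The log2-fold change of 0.04 had an interval from −0.65 to 0.74 (edgeR adjusted p = 0.953), and a change inside that interval was not detectable at this depth.

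Neither dox nor the genotype alone moved a member past the test. Between wildtype retinas with dox and untreated wildtype retinas, 0 of 6 passed by edgeR or DESeq2, and 0.00485% of all genes passed by edgeR, with or without the fold cutoff. By edgeR 1 member (Th) had an unadjusted p under 0.05, as did 1922 of the 20631 genes tested. Drd4 was at 0.00 (95% confidence interval −0.25 to 0.25) on the log2 scale in this comparison, and at 0.034 without both lens-rich retinas. Between untreated PRDM13-OE and untreated wildtype retinas, again 0 of 6 passed by either tool and 0 had an unadjusted p under 0.05, and 0.00484% of all genes passed, or 0% with the fold cutoff. Drd4 was at 0.22 (95% confidence interval −0.03 to 0.48, edgeR adjusted p = 0.995), ranging from 0.095 without untreated wildtype retina 1 to 0.39 without untreated wildtype retina 2, with 281 to 320 CPM in the PRDM13-OE group and 208 to 312 CPM in wildtype.

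Dox within PRDM13-OE gave the same member at the head. Of all genes 5.00% passed, 1.04% with the fold cutoff, and of the 6 members 1 passed, none of them past the cutoff. Drd4 rose by 0.65 on the log2 scale (SE 0.07, 95% confidence interval 0.50 to 0.80, edgeR adjusted p = 7.5e-05), from 297 ± 20.4 to 468 ± 34.7 CPM (SD, n = 3 each). Drd1 was at −0.29 (SE 0.08, edgeR adjusted p = 0.0694), with groups of 3 that did not overlap, as for 20.8% of all genes, and passed under 6 of 14 alternatives, DESeq2 among them (adjusted p = 0.0347). Th was at −0.35 (adjusted p = 0.472), Slc18a2 at 0.12, Drd2 at −0.10 and Ddc at −0.11. This comparison shares the PRDM13-OE retinas with dox with the one above and is not separate support.

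The interaction of genotype and dox asked whether dox changed a gene more in PRDM13-OE than in wildtype retinas. Of all genes 3.03% passed, 0.870% with the fold cutoff. Of the 6 members 1 passed, Drd4, at 0.65 (SE 0.15, 95% confidence interval 0.34 to 0.96, edgeR adjusted p = 0.0181), with 0 past the cutoff. The call was lost under 5 of 20 alternatives, with an adjusted p of 0.111 with robust fitting, 0.124 with the lens crystallin level as a covariate, 0.162 without both lens-rich retinas, 0.0552 without PRDM13-OE retina 1 with dox and 0.0771 without PRDM13-OE retina 2 with dox, and its value stayed between 0.48 and 0.78. For Drd1 the interaction was −0.23 (adjusted p = 0.351) and for Slc18a2 0.38 (adjusted p = 0.452), and without both lens-rich retinas −0.32 (adjusted p = 0.382) and 0.25 (adjusted p = 0.791).

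**Figure D3:**
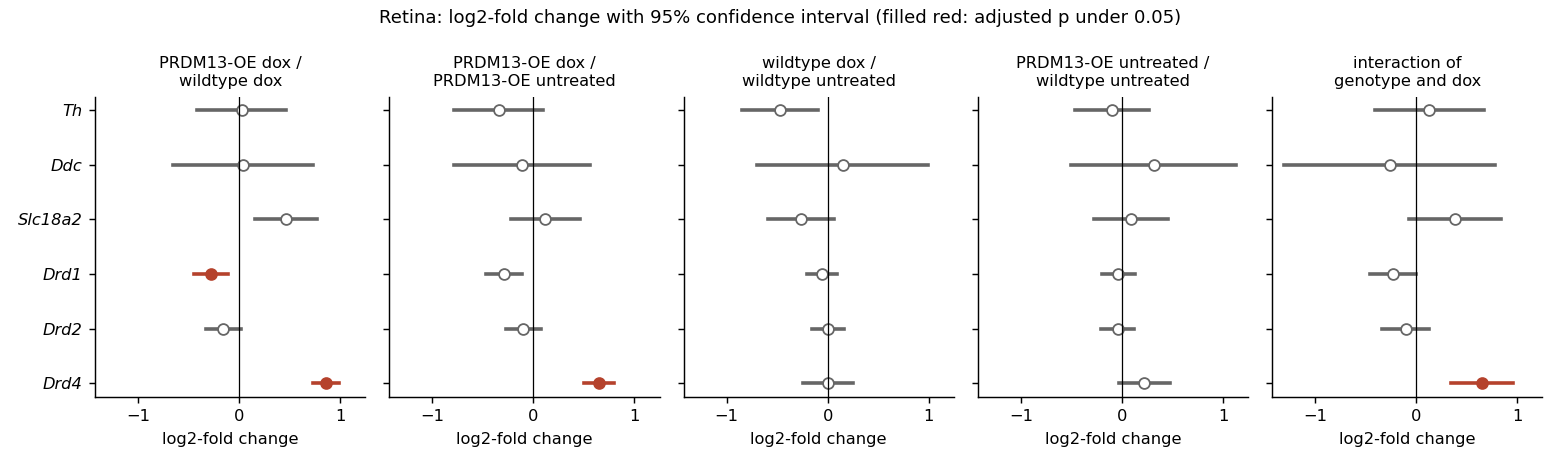
Log2-fold change of the 6 genes with 95% confidence interval in the 4 pairwise comparisons of retinas and their interaction (n = 3 per group), filled red where the adjusted p was under 0.05. Drd4 is red in both comparisons with dox-treated PRDM13-OE retinas and in the interaction (0.86, 0.65 and 0.65), Drd1 in 1, and the interval of Ddc is the widest in each panel.

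The wider dopamine list held 34 further genes, of which 30 could be tested in retinas with dox. In PRDM13-OE, 2 rose and 6 fell, which is 8 of 30 where 12.5% of all genes passed, and 3 of the falls, the lens gene Pitx3 among them, were past the fold cutoff that 2.41% of all genes met. The list had a median of −0.13, beside 0.01 over all genes. It was chosen with earlier results of these data known, so these counts describe it and are no test of it. The 6 genes that make and recycle the tetrahydrobiopterin cofactor of Th (Gch1, Gchfr, Pts, Spr, Qdpr and Pcbd1) gave 0 calls, between −0.98 and 0.08. The plasma membrane transporter Slc6a3 and the other vesicular transporter Slc18a1 did not pass, and of the genes of breakdown and conversion only Aldh2, which oxidises the aldehydes left by monoamine oxidase, passed, with a fall of 0.27 on the log2 scale (adjusted p = 0.00639). Aldh2 was at 60.5 ± 1.11 and 72.8 ± 3.15 CPM (SD, n = 3 each), and its call was lost without both lens-rich retinas (−0.21, adjusted p = 0.28) and with the lens crystallin level as a covariate (−0.16, adjusted p = 0.541).

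In receptor signalling 2 genes rose and 2 fell of 7 tested. Rgs9, which speeds the shut-off of G proteins in photoreceptors and in the striatum, was at 145 ± 14.0 CPM in the PRDM13-OE group and 387 ± 19.7 CPM in wildtype retinas with dox, or −1.42 on the log2 scale (SE 0.07, edgeR adjusted p = 2.4e-07). Adcy1, a calcium-stimulated adenylyl cyclase, was at 182 ± 16.8 and 393 ± 44.5 CPM, which is −1.12 on the log2 scale (SE 0.09, edgeR adjusted p = 6.6e-06). Ppp1r1b, which encodes the phosphatase inhibitor DARPP-32, rose from 16.7 ± 1.59 to 31.2 ± 3.51 CPM, by 0.89 (SE 0.10, edgeR adjusted p = 0.000117). Gnb5, the G protein subunit that pairs with Rgs9, was at 861 ± 23.5 and 690 ± 30.1 CPM, or 0.31 on the log2 scale (SE 0.045, edgeR adjusted p = 0.000799), and did not pass without both lens-rich retinas (0.27, adjusted p = 0.0938) or with the lens crystallin level as a covariate (0.24, adjusted p = 0.261). Without both lens-rich retinas Rgs9 was at −1.50 (adjusted p = 1.9e-06), Adcy1 at −1.18 (adjusted p = 9.4e-07) and Ppp1r1b at 1.05 (adjusted p = 0.0106), and with the lens crystallin level as a covariate Ppp1r1b was at 1.23, so that it passed the fold cutoff in both. Adcy5, Gnal and Gnai1 did not pass, between −0.19 and −0.12.

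The remaining calls were 2 genes of GABA synthesis and a regulator. Dopaminergic amacrine cells also release GABA, and Gad1 was at −0.30 (adjusted p = 0.00309) and Gad2 at −0.27 (adjusted p = 0.0166), with the transporter Slc32a1 at −0.07 without passing. Gad2 lost its call under 5 of 15 alternatives, among them leaving out both lens-rich retinas (−0.37, adjusted p = 0.0919), whereas Gad1 kept its call under all 15 alternatives, between −0.43 and −0.21. Of the wider amacrine list, 9 of 10 genes could be tested and 1 rose, Prdm13, and 2 fell, Gad1 and Gad2. Pitx3, a dopaminergic regulator in the midbrain that is also a lens gene, was at 4.60 and 7.78 CPM in the 2 lens-rich wildtype retinas, at 0 CPM in wildtype retina 3 and at 0 to 0.118 CPM in PRDM13-OE retinas with dox. Its fitted −6.56 (adjusted p = 0.0124) became 2.68 (adjusted p = 0.731) without both lens-rich retinas, and at such counts the fitted size depends on the prior count. Drd5 was at −0.12, and Drd3, Asmt, Lmx1b and Foxa2 had too few counts to be tested.

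**Figure D4:**
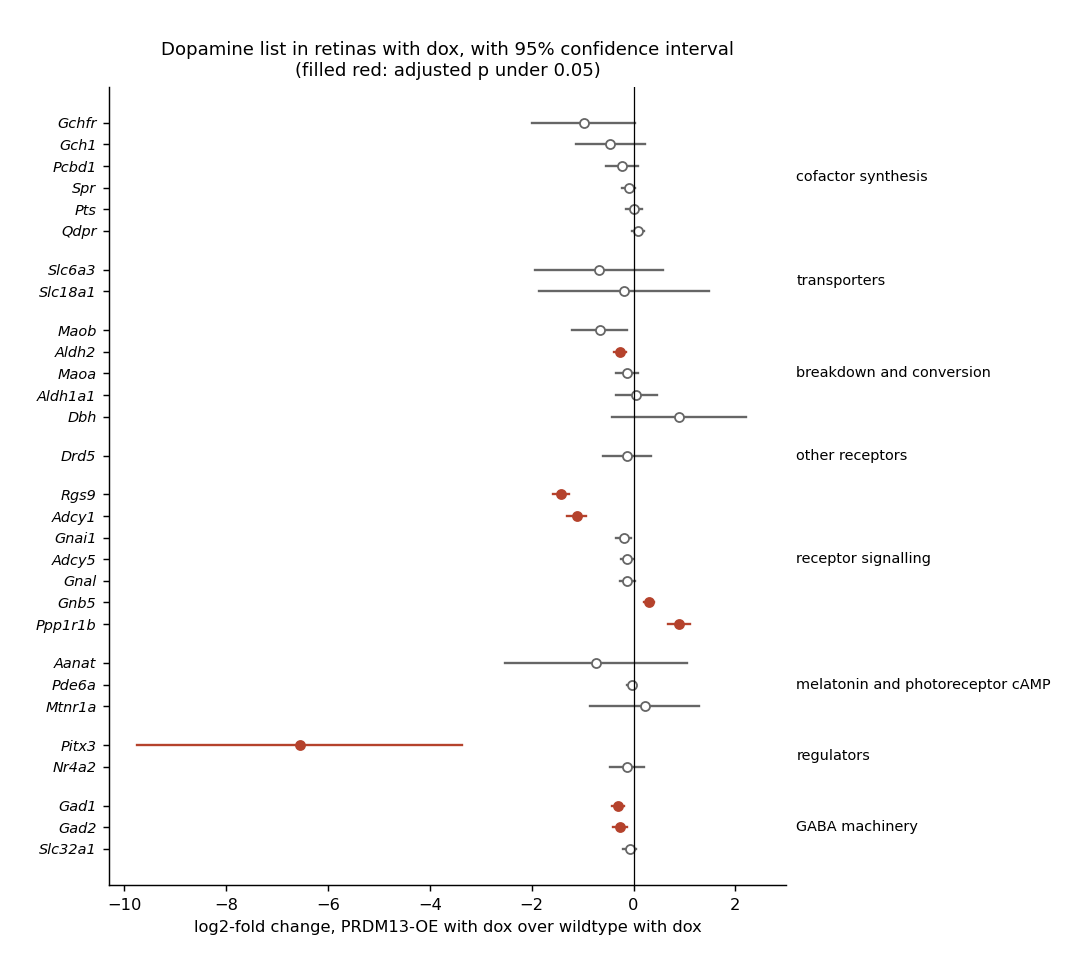
Log2-fold change with 95% confidence interval of 29 of the 30 tested genes of the dopamine list, grouped by role, with dox between PRDM13-OE and wildtype retinas (n = 3 each), filled red where the adjusted p was under 0.05. Rgs9 (−1.42), Adcy1 (−1.12) and Ppp1r1b (0.89) stand off 0 with narrow intervals, and Pitx3 (−6.56) has the widest.

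To place the genes between the tissues, retinas and eye cups of untreated wildtype mice were compared. All 6 members passed, as did 61.5% of the 21979 genes tested, and 5 of them passed the fold cutoff, as did 45.2% of all genes. The 3 receptors and Th were higher in the retina, with log2-fold changes of 3.68 (SE 0.63) for Drd1, 2.96 (SE 0.71) for Th, 2.62 (SE 0.63) for Drd2 and 2.14 (SE 0.53) for Drd4, and edgeR adjusted p from 0.00175 to 0.00958. Their sizes turned on the eye cups left in, with 4.81, 3.63, 3.75 and 2.73 in that order without untreated wildtype eye cup 1 and 3.26, 2.49, 2.19 and 1.75 without eye cup 2. Slc18a2 was higher by 0.85 (SE 0.22, edgeR adjusted p = 0.0116), under the cutoff. Ddc was lower in the retina by 3.96 (SE 0.39, edgeR adjusted p = 0.000126).

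Within each of the 3 mice the order was the same. For Drd4 the retina and eye cup held 56.6 and 25.1 FPKM in mouse 1, 83.2 and 4.62 FPKM in mouse 2 and 68.0 and 17.0 FPKM in mouse 3. For Ddc they held 0.211 and 2.32, 0.121 and 4.41, and 0.305 and 3.28 FPKM. Th was at 2.39 and 0.449 FPKM in mouse 1 and at 1.97 and 0.311 FPKM in mouse 3, and in mouse 2 it was at 1.94 FPKM in the retina and listed at 0 in the eye cup. Eye cup 2, which had 0 Th counts, also had the least rod RNA of the 12 eye cups, 2960 CPM.

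In the eye cups, the receptors and Th were higher where rod genes were higher and RPE genes lower, and Ddc the reverse. Across the 12 eye cups the correlation of log2 levels with the rod list was 0.93 for Drd1, 0.92 for Drd2, 0.85 for Drd4, 0.75 for Th, 0.59 for Slc18a2 and −0.59 for Ddc (Spearman rho 0.94, 0.93, 0.83, 0.67, 0.70 and −0.55). With the RPE list Ddc had r of 0.91 and rho of 0.90, and the r was −0.84 for Drd4, −0.68 for Th, −0.72 for Drd1, −0.70 for Drd2 and −0.30 for Slc18a2 (rho −0.88, −0.76, −0.70, −0.69 and −0.29). These values describe 12 libraries that share their scaling, and no test was made of them.

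For the effect of dox and genotype in the eye cup, 0 of the 6 members passed in any of the 4 comparisons by edgeR. Between the genotypes with dox 0.0184% of all genes passed, and none of the 6 had an unadjusted p under 0.05 or passed by DESeq2. Without PRDM13-OE eye cup 3, Drd1 moved from −1.15 to −2.39 (adjusted p = 0.0228) and Drd2 from −1.29 to −2.13 (adjusted p = 0.0266). In that fit 2209 of the 21237 genes tested passed, so the calls of Drd1 and Drd2 came with many others. Between wildtype eye cups with dox and untreated ones 0% of the 21799 genes tested passed by edgeR. Of these genes 6517 had an unadjusted p under 0.05 by edgeR and 4039 passed by DESeq2. Among the members, Drd1, Drd2, Drd4 and Th had an unadjusted p under 0.05 and the 3 receptors passed by DESeq2. Their log2-fold changes were 2.40 for Drd1, 1.97 for Drd2, 1.46 for Drd4 and 1.98 for Th. In the same order they were 3.49, 3.06, 1.98 and 2.61 without untreated eye cup 1, 1.93, 1.51, 1.02 and 1.45 without untreated eye cup 2, and 0.67, 0.47, 0.34 and 1.23 with the rod level as a covariate over all 12 eye cups. The rod list stood at 24107 to 46893 CPM with dox and 2960 to 23577 CPM without. Other retinal lists were also higher with dox without overlap, amacrine at 787 to 1011 against 429 to 584 CPM, ganglion at 465 to 639 against 91.5 to 294 CPM and horizontal at 44.4 to 75.6 against 1.52 to 28.2 CPM, while the RPE list was lower, at 8388 to 16858 against 25488 to 38840 CPM. The part of these cell types in the changes was not tested. Between untreated PRDM13-OE and untreated wildtype eye cups 0% of all genes passed, and none of the 6 by any of these measures. Between PRDM13-OE eye cups with dox and untreated ones 0.0139% of the 21604 genes tested passed, and 894 had an unadjusted p under 0.05 by edgeR. Drd4 (1.50) and Ddc (−1.32) were among the latter. By DESeq2 54 genes passed and 0 members. Drd4 was at 0.74 without PRDM13-OE eye cup 3 with dox.

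Drd4 levels in the eye cup varied with the rod genes of the library. With dox, PRDM13-OE eye cups were at 131, 70.7 and 311 CPM, wildtype eye cups with dox at 168, 142 and 108 CPM, untreated PRDM13-OE at 66.1, 81.9 and 33.3 CPM and untreated wildtype at 77.4, 15.0 and 53.4 CPM. The groups with dox overlapped, at 0.35 on the log2 scale (95% confidence interval −0.80 to 1.50, edgeR adjusted p = 0.808), and without PRDM13-OE eye cup 3 the value turned to −0.38. Per 1000 rod reads, Drd4 was at 11.2, 13.4 and 8.55 in PRDM13-OE eye cups with dox, at 3.58, 3.97 and 4.48 in wildtype eye cups with dox, at 5.21, 3.86 and 4.71 in untreated PRDM13-OE and at 3.28, 5.06 and 4.50 in untreated wildtype. On this measure the 3 eye cups of PRDM13-OE mice with dox lay above the other 9, as did the retinas of the same mice.

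The ratio to wildtype eye cups with dox was 2.73 and to untreated PRDM13-OE eye cups 2.39, each with an exact two-sided permutation p of 0.1, the smallest that 3 against 3 samples allow. In retinas the same ratios were 2.40 and 2.09, with the same p. With the rod level as a covariate over the 12 eye cups, Drd4 differed by 1.14 on the log2 scale from wildtype with dox (edgeR adjusted p = 0.0717) and by 1.29 from untreated PRDM13-OE (edgeR adjusted p = 0.0139). The per-rod measure was added after the data were seen, and the fall of rod genes with dox in PRDM13-OE retinas raises it.

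**Figure D5:**
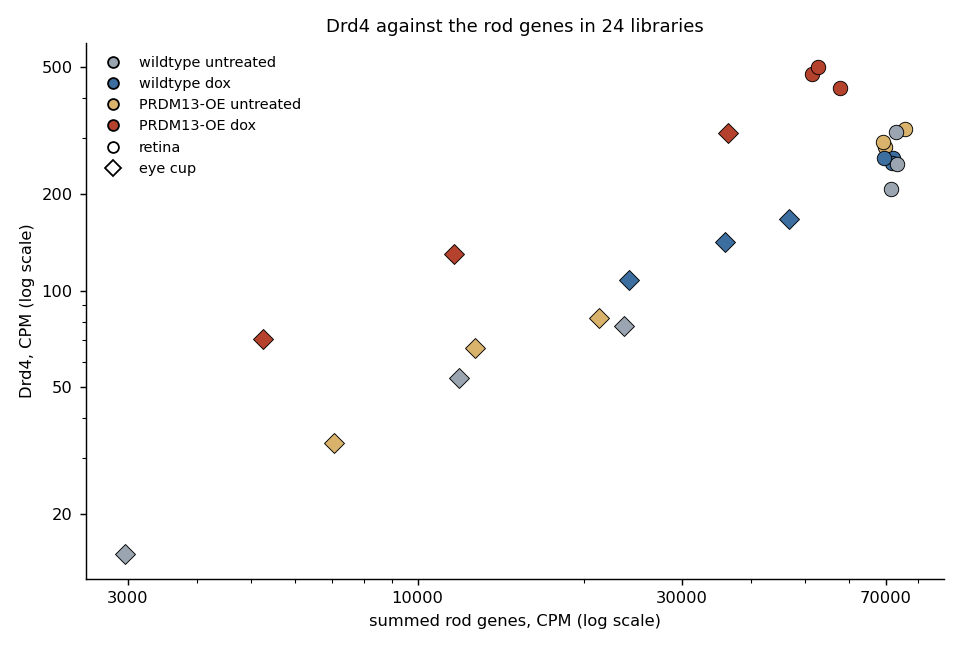
Drd4 CPM against the summed CPM of the rod list in the 24 libraries (both axes log), circles for retinas, diamonds for eye cups, coloured by group. The 3 PRDM13-OE eye cups and 3 PRDM13-OE retinas with dox lie above the band formed by the other 18 libraries, at 7.44 to 13.4 Drd4 reads per 1000 rod reads against 2.90 to 5.21.

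Ddc was low in the eye cups where the RPE list was low. PRDM13-OE eye cups with dox held 5.25, 8.53 and 4.03 CPM and untreated PRDM13-OE eye cups 9.98, 14.6 and 19.9 CPM, 2 groups that did not overlap, as for 9.17% of all genes, at −1.32 on the log2 scale (SE 0.41, edgeR adjusted p = 0.975). The RPE list was at 5784 to 17323 CPM in the former and 18234 to 48252 CPM in the latter, and its part in the difference was not tested. Red blood cell genes also set the PRDM13-OE samples with dox apart, at 12.4 to 14.3 CPM against 238 to 3459 CPM in the other eye cups and at 0.709 to 1.18 CPM against 21.6 to 77.8 CPM in the other retinas.

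The genes whose levels most resembled each member over the 12 retinas were named by Pearson correlation of log2(CPM + 1) among 12149 genes with at least 50 counts in every retina. For Drd4 they were Mgat1, Htra2, BC055402, Sgta and Gzmm, with r from 0.94 to 0.95, and BC055402 and Gzmm were themselves 2.32 and 1.81 higher on the log2 scale in PRDM13-OE retinas with dox. For Drd1 they were Tmem237, Arl4c, Htr2a, Dusp3 and Cep76 (r of 0.92 to 0.93), and for Drd2 Isl1, a marker of bipolar, starburst and ganglion cells, with Chmp2b, Extl2, Fgf12 and Ssb (r of 0.88 to 0.93). For Slc18a2 they were Lmbr1l, Atp6v0b, a subunit of the proton pump that powers vesicle loading, Mpi, Rhpn1 and H2-K2 (r of 0.90 to 0.92), for Th Slc43a2, Adap1, Btbd9, Prob1 and Ica1 (r of 0.84 to 0.89), and for Ddc Pcsk2, Tmem260, Fam98b, Dym and Bmerb1 (r of 0.79 to 0.81). These lists are descriptions over 12 libraries in 4 groups, with no test, and ranking by Spearman rho shared at most 2 of 5 names for any member.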

How the data were processed

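The data are RNA sequencing libraries of 12 neural retinas and 12 eye cups, with 3 mice in each of 4 groups per tissue, grouped by the sample titles. The authors had the libraries sequenced on Illumina platforms and deposited a table of read counts per gene, without normalization, and of FPKM values, which per the labels are scaled by gene length and depth. The submitters' processing notes name CASAVA, HISAT2 and the build GRCm39. The counting tool, the annotation release and the strand setting were not given in the sources used here. The table also holds the authors' normalized group means, log2-fold changes and p-values of their own comparisons, which were not used.

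Counts were tested with edgeR 4.0.16 (R 4.3.3), with TMM factors, the quasi-likelihood test without robust fitting, a minimum of 10 counts per gene over the compared libraries and Benjamini-Hochberg adjustment over all genes tested. A gene passed, or was called, at an adjusted p under 0.05, and a second count took the fold cutoff of the study, a log2-fold change beyond 1. CPM values were scaled by TMM factors over the 12 libraries of a tissue, so levels of 1 gene are compared within a tissue by CPM and levels of different genes by FPKM. The pairwise fits used the 6 libraries compared and the interaction all 12 retinas. No 2 libraries of a group agreed within sampling noise. Counting error and the depth of 15825059 to 24908314 counts per library limit Th, Slc18a2 and Ddc most.

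The 6 members and all lists were chosen with earlier results of these data known. The genes named were the 6 members, the list genes that passed in retinas with dox or in the interaction, and the 5 genes of highest correlation with each member. In the dopamine list 1 gene was counted but is not reported by itself here. The alternatives were DESeq2 1.42.0, library size scaling, other filters, robust fitting, a replicate block, 1 fit over all 12 libraries, covariates for lens crystallins or rods, and leaving out each library. Leaving out both lens-rich retinas and the ratio of Drd4 to rod reads were added after seeing the data. Retina and eye cup with the same number came from the same mouse, and in the 3 untreated wildtype mice the deviations of both tissues from the group means correlated at 0.12, 0.09 and 0.07. Within a tissue the numbers stand for different mice. Promoter sequences came from RefSeq (GRCm38.p6) and were placed on GRCm39 by exact match.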

Additional observations from a re-analysis of the deposited data

Results flagged for a closer look

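In retinas, 4 of the genes described showed an effect of dox that differed between PRDM13-OE and wildtype mice by the edgeR interaction test over all 12 libraries (n = 3 per group). They were 1 of the 6 members, and 1 higher and 2 lower of the 31 list genes tested. Of all genes 3.03% passed. Drd4 had an interaction of 0.65 on the log2 scale (adjusted p = 0.0181), from a change with dox of 0.65 in PRDM13-OE and 0.00 in wildtype. It passed under 15 of 20 alternatives, between 0.48 and 0.78. Rgs9 had an interaction of −1.33 (adjusted p = 8.9e-06) and Adcy1 of −1.12 (adjusted p = 1.5e-05), and both passed under all 20 alternatives. Gnb5 had an interaction of 0.32 (adjusted p = 0.0331) and passed under 9 of 20 alternatives, with adjusted p from 0.00173 to 0.299, the latter without both lens-rich retinas (0.27).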

How the results depend on the processing

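Drd4 in retinas kept its direction and an adjusted p under 0.05 under all 15 alternatives against wildtype with dox and all 14 against untreated PRDM13-OE, and all 6 members kept theirs under all 12 alternatives between the tissues, where Slc18a2, at 0.85, crossed the fold cutoff with library size (1.16). Without the fold cutoff, 2 members instead of 0 passed between PRDM13-OE and wildtype with dox, 1 instead of 0 between PRDM13-OE with dox and untreated, and 1 instead of 0 in the interaction. With the cutoff, between wildtype eye cups with dox and untreated ones, 3 members and 1979 of 21799 genes passed by DESeq2. Without a filter on low counts, 1 member and 1060 of 29063 genes passed there. With the rod covariate, 1 member and 35 of 23837 genes passed between PRDM13-OE eye cups with dox and untreated. Leaving out each library gave 0 to 2 members in the eye cup with dox (2 without PRDM13-OE eye cup 3) and 0 to 2 between wildtype eye cups with and without dox (2 without untreated eye cup 1). With library size in place of TMM factors, 2175 genes were higher and 1007 lower in PRDM13-OE retinas with dox, against 1030 and 1545. Genes passing there numbered 2575 in the fit of 6 libraries and 1920 in 1 fit over all 12 retinas, and in such fits 453 with the lens covariate and 713 without both lens-rich retinas. The fit of 6 libraries less 1 gave 1504 without PRDM13-OE retina 2 and 1685 without PRDM13-OE retina 3. Between wildtype retinas with and without dox the count of 1 became 93 by DESeq2, 588 without a filter and 184 without wildtype retina 3 with dox. Between untreated retinas the 1 became 104 without a filter. Between PRDM13-OE retinas with and without dox 1031 became 1658 without a filter, 605 without PRDM13-OE retina 2 and 679 without PRDM13-OE retina 3. In the interaction 682 became 1433 without a filter, 323 without both lens-rich retinas and 453 without PRDM13-OE retina 2. In eye cups with dox 4 became 119 by DESeq2 and 2209 without PRDM13-OE eye cup 3. Between wildtype eye cups with and without dox 0 became 4039 by DESeq2, 1604 without a filter, 1348 with library size, 1398 without eye cup 3 with dox and 2853 without untreated eye cup 1. Between untreated eye cups 0 became 298 without PRDM13-OE eye cup 1, and between PRDM13-OE eye cups with and without dox 3 became 54 by DESeq2, 0 in 1 fit over all 12 eye cups and 35 there with the rod covariate.

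The values in the following sentences turned sign on the log2 scale and did not pass, and the cause was not tested. In retinas with dox, Th was at −0.087 without both lens-rich retinas, and Ddc at −0.37 there and at −0.41 with the lens covariate. Pitx3, which had passed, was at 2.68, and at 3.33 in the interaction, without both lens-rich retinas. Between wildtype retinas with and without dox, Drd1 was at 0.0046 with the lens covariate and 0.033 without both lens-rich retinas, Drd2 at −0.0073 with library size and −0.0006 without a filter, and Drd4 at −0.0091 with library size. In the eye cup with dox, the rod covariate gave 0.74 for Th and 0.075 for Drd1, between wildtype with dox and untreated 0.055 for Ddc, and between untreated genotypes −0.29 for Drd2. Leaving out each library in turn moved, in retinas with dox, Th from −0.15 to 0.17 and Ddc from −0.16 to 0.30. Between wildtype retinas with and without dox it moved Ddc from −0.11 to 0.50, Drd2 from −0.050 to 0.054 and Drd4 from −0.13 to 0.17. Between untreated retinas it moved Th from −0.14 to 0.0075, Slc18a2 from −0.040 to 0.21, Drd1 from −0.062 to 0.012 and Drd2 from −0.10 to 0.0069. Between PRDM13-OE retinas with and without dox it moved Ddc from −0.21 to 0.10 and Slc18a2 from −0.0057 to 0.24, and in the interaction Th from −0.061 to 0.27 and Ddc from −0.60 to 0.0001. In eye cups with dox it moved Th from −0.52 to 0.18 and Drd4 from −0.38 to 0.70. Between untreated eye cups it moved Ddc from −0.13 to 0.37, Slc18a2 from −0.30 to 0.18, Drd1 from −0.86 to 1.60, Drd2 from −1.04 to 1.21 and Drd4 from −0.10 to 0.83. Between PRDM13-OE eye cups with and without dox it moved Slc18a2 from −0.46 to 0.51, Drd1 from −0.50 to 2.11 and Drd2 from −0.30 to 1.70.

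A replicate block on the mouse number, which within a tissue is only a number, put Drd1 at −0.33 and Drd2 at −0.55 between untreated eye cups, neither passing, and the interaction of Gnb5 at an adjusted p of 0.0594. It changed no call of the 6 members, and between the tissues, where the number marks the same mouse, all 6 passed with it. In retinas with dox 2545 genes passed with the block and 2575 without, and 2 of 6 libraries correlated best with the library of their own number. Depth limits Ddc in retinas, at 11 to 31 counts, most.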

Other observations

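Some genes of the dopamine list differed between the tissues of untreated wildtype mice. Of 31 tested, 12 passed as higher and 13 as lower in the retina, beside 61.5% of all genes that passed in either direction. All 3 genes of GABA machinery were higher in the retina, by 3.07 to 3.43 on the log2 scale, and so was Drd5, by 4.12. Of 6 genes of tetrahydrobiopterin cofactor synthesis, 4 were lower in the retina (Gch1, Gchfr, Pts and Spr), as were Maob, Aldh1a1 and Aldh2 among the genes of breakdown and conversion. Pcbd1, Qdpr, Maoa and Dbh did not pass.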
